A study of Solanum lycopersicum with 6 samples.

Results

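The genes described in the deposited table as cold regulated 27 were followed in tomato (Solanum lycopersicum) roots of the slszp1 mutant and of wild type. They were taken by identifier: Solyc01g108100.3, Solyc03g026000.3 and Solyc10g050220.2, which are 3 of the 35768 genes listed. The identifiers place them on chromosomes 1, 3 and 10. The words "cold regulated" and 27 also describe Solyc04g078880.3 on chromosome 4. This further gene is not among the 3 genes chosen, and its values are given beside theirs. The mutant group was 3 root libraries of slszp1 plants and the other group 3 root libraries of wild type plants, all described as biological replicates. Both genotypes were 20 days old and both had been treated with 60 µM aluminium (Al) at pH 4.7, so every difference is one between genotypes under Al. SZP1 is known as a zinc finger protein that works with STOP1, a factor needed for tolerance of Al and acidity; the allele and line of the mutant are not given in the sources used here. The table names no gene as SZP1, so the genotype labels were not checked against the mutated gene.

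COR27 and its partner COR28 are small plant proteins known from Arabidopsis. There, their transcripts are high in the afternoon and evening and rise in the cold, and CCA1, a morning factor of the circadian clock, represses them. The proteins act on the transcription of clock genes, take part in photomorphogenesis through the light factors HY5 and COP1, and lower freezing tolerance. These roles come from Arabidopsis and were not measured here. The hour of collection and the temperature of the plants are not given in the sources used here, so the names "evening" and "cold" could not be checked in these roots. Protein and promoter sequences of the genes were not used here.

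Of the 3 genes, Solyc03g026000.3 was higher in the mutant, and the other two did not pass the test. Levels are in TPM, a transcript abundance scaled for gene length and for the total of each library. Differences are in log2(TPM + 1), mutant minus wild type, in which changes of low genes come out too small. The words rose and fell are kept for a Benjamini-Hochberg adjusted limma p under 0.05, adjusted over all tested genes. A gene was tested if it reached 1 TPM in 3 libraries; all 3 genes did so, in 5 or 6 of the 6 libraries. Of 17702 tested genes, 19.2% changed, 8.71% upward and 10.5% downward, so nothing is read from 1 changed gene among 3. Higher genes numbered 1542 in all, 995 when mutant replicate 3 was left out and 994 when wild type replicate 1 was. Lower genes numbered 1865 in all, 1240 when mutant replicate 2 was left out and 1131 when wild type replicate 1 was.

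Solyc03g026000.3 held 17.14, 13.62 and 23.4 TPM in mutant replicates 1, 2 and 3, against 1.26, 4.1 and 0.77 TPM in wild type replicates 1, 2 and 3. The lowest mutant library lay above the highest wild type library; such separation upward was seen in 18.2% of tested genes. The mean was 18.1 ± 4.95 TPM in slszp1 roots, against 2.04 ± 1.80 TPM in wild type roots (SD, n = 3 each), a ratio of 8.84. Its difference was 2.77 (SE 0.40, 95% interval 1.85 to 3.69), with a limma adjusted p of 0.00262. By size the rise ranked 115 among the 1542 higher genes. In these bulk samples a difference in the number of cells of a type and a difference in RNA per cell cannot be told apart. The quality code of its automatic description has 1 star, where the other members have 3 stars, so its name is the least certain of the set. The Arabidopsis gene it was matched to is the same as for Solyc10g050220.2.

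Solyc01g108100.3 held 8.29, 12.47 and 14.1 TPM in mutant replicates 1, 2 and 3, against 3.69, 9.98 and 6.05 TPM in wild type replicates 1, 2 and 3. The genotypes overlapped, because wild type replicate 2 lay above mutant replicate 1. The mean was 11.6 ± 2.997 TPM in slszp1 roots, against 6.57 ± 3.18 TPM in wild type roots (SD, n = 3 each). The difference was 0.79 (SE 0.33, 95% interval 0.043 to 1.54), with an unadjusted limma p of 0.0406 and an adjusted p of 0.134. Unadjusted limma p-values under 0.05 were seen in 32.5% of tested genes. Without wild type replicate 2 the difference was 1.10 and the limma adjusted p 0.0288, so this library decides whether the gene passes.

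Solyc10g050220.2 held 15.11, 17.54 and 18.14 TPM in mutant replicates 1, 2 and 3, against 23.03, 31.4 and 19.39 TPM in wild type replicates 1, 2 and 3. The genotypes did not overlap, the mutant being lower by 1.25 TPM at the closest, a separation downward seen in 20.2% of tested genes. The mean was 16.9 ± 1.60 TPM in slszp1 roots, against 24.6 ± 6.16 TPM in wild type roots (SD, n = 3 each). The difference was -0.49 (SE 0.20, 95% interval -0.94 to -0.043), with an unadjusted limma p of 0.0351 and an adjusted p of 0.122. It was -0.31 without wild type replicate 2, the library in which this gene was highest.

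The further gene of this description, Solyc04g078880.3, held 10.72, 11.98 and 6.68 TPM in slszp1 roots, against 4.77, 8.8 and 7.33 TPM in wild type roots (replicates 1, 2 and 3). The genotypes overlapped, and the difference was 0.44 (SE 0.27, 95% interval -0.18 to 1.06) with a limma adjusted p of 0.309. For this gene and the 3 chosen genes alike, wild type replicate 2 held the highest level of the wild type libraries. The 4 genes are related by description, and whether reads were divided among them was not tested.

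**Figure D1:**
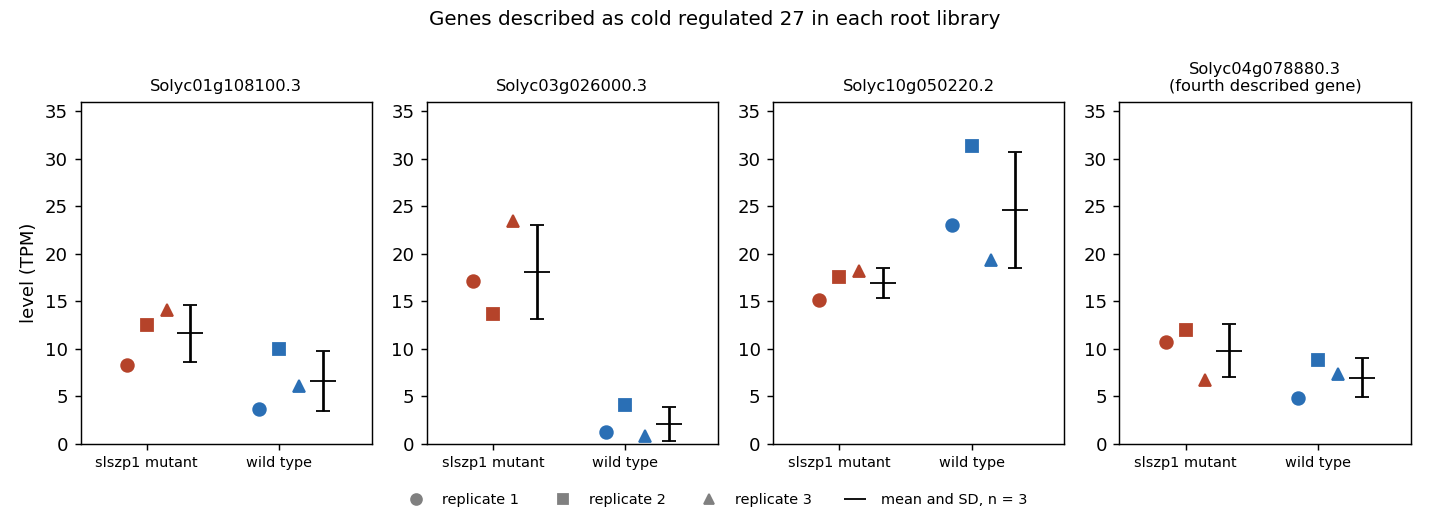
Level in TPM of the 3 chosen genes and of the further gene of the same description in each library, mutant left of wild type; each point is a library, its shape the replicate number, and the bars are the mean and SD of 3 libraries. Solyc03g026000.3 lies at 13.62 to 23.4 TPM in slszp1 roots, against 0.77 to 4.1 TPM in wild type roots, and wild type replicate 2 is the highest wild type library in every panel.

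The order of the genes differed between genotypes. In every wild type library Solyc10g050220.2 was the most abundant of the 3 and Solyc03g026000.3 the least. In mutant replicates 1 and 3 Solyc03g026000.3 was the most abundant, and in mutant replicate 2 it stood below Solyc10g050220.2; Solyc01g108100.3 was the least abundant in every mutant library. Solyc03g026000.3 and Solyc10g050220.2 overlapped in the mutant, so their order there is not beyond their spread. In wild type Solyc10g050220.2 did not overlap with either of the others, and Solyc01g108100.3 and Solyc03g026000.3 overlapped there. By mean level among tested genes, Solyc03g026000.3 stood at percentile 58.7 in the mutant and 11.1 in wild type. Solyc01g108100.3 stood at percentile 48.1 in the mutant and 33.9 in wild type, and Solyc10g050220.2 at percentile 57.1 in the mutant and 66.1 in wild type.

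Summed over the 3 genes, the level overlapped between genotypes, while the shares of Solyc03g026000.3 and Solyc10g050220.2 in the sum did not. The sum was 40.54, 43.63 and 55.64 TPM in mutant replicates 1, 2 and 3, against 27.98, 45.48 and 26.21 TPM in wild type replicates 1, 2 and 3. Wild type replicate 2 lay within the mutant range, and an exact two-sided permutation test gave p = 0.3. Solyc03g026000.3 made up 38.5 ± 6.32% of the sum in the mutant and 5.49 ± 3.16% in wild type (SD, n = 3 each). Solyc10g050220.2 made up 36.7 ± 3.83% in the mutant and 75.1 ± 6.71% in wild type. Solyc01g108100.3 made up 24.8 ± 4.09% in the mutant and 19.4 ± 5.41% in wild type, with overlap between genotypes.

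The ratio between genes of the same library is free of the total of that library. Solyc03g026000.3 over Solyc10g050220.2 was 1.13, 0.777 and 1.29 in mutant replicates 1, 2 and 3, against 0.0547, 0.131 and 0.0397 in wild type replicates 1, 2 and 3. In log2 the ratio differed by 3.99 between genotypes. Solyc01g108100.3 over Solyc10g050220.2 was 0.549, 0.711 and 0.777 in the mutant and 0.16, 0.318 and 0.312 in wild type, a log2 difference of 1.42. The genotypes did not overlap for either ratio, and the exact two-sided permutation p was 0.1 for each, the smallest that 3 libraries against 3 can give. For Solyc03g026000.3 over Solyc10g050220.2 this outcome was fixed by the separations of both genes given above, in opposite directions, so it is no further result.

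**Figure D2:**
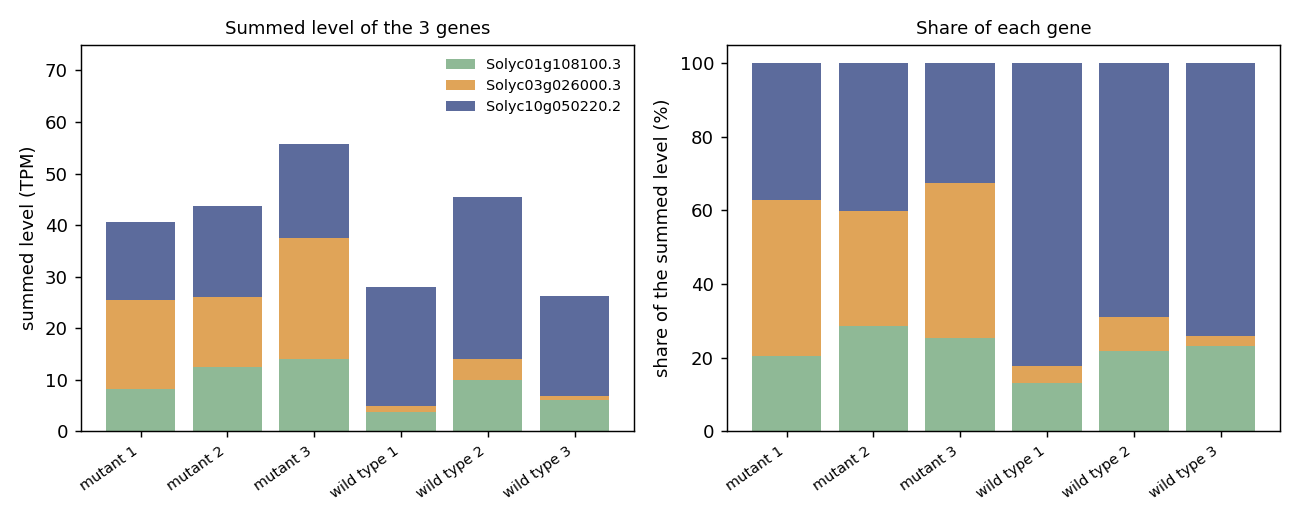
Left, level in TPM of the 3 genes stacked for each library; right, the share of each gene in that sum in percent, mutant libraries left of wild type libraries. Solyc10g050220.2 takes 32.6% to 40.2% of the sum in the mutant and 69.0% to 82.3% in wild type, while the sums overlap between genotypes.

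Within a genotype the 3 genes were highest in the same libraries, mutant replicate 3 and wild type replicate 2. Mutant replicate 3 was also the highest mutant library for 10010 of the 17702 tested genes, and wild type replicate 2 the highest wild type library for 33.6%. The order of the remaining libraries differed between the genes. After the genotype mean was taken off, the deviations of Solyc03g026000.3 and Solyc10g050220.2 over the 6 libraries had a Pearson r of 0.88. Those of Solyc01g108100.3 had an r of 0.65 with Solyc03g026000.3 and 0.71 with Solyc10g050220.2. Over the libraries as they stand, Solyc03g026000.3 and Solyc10g050220.2 had an r of -0.52, because their genotype differences have opposite signs. These values rest on 6 libraries and are given as a description.

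The genes beside them in the table show that 2 of the members lie in like surroundings. Solyc01g108100.3 is followed by an alpha 1,3 fucosyltransferase gene, Solyc01g108110.3, and has a gene described as abscisic acid responsive elements-binding factor 2, Solyc01g108087.1, near it on the other side. Solyc10g050220.2 is likewise followed by an alpha 1,3 fucosyltransferase gene, Solyc10g050230.2, and preceded by a gene of an abscisic acid responsive element-binding factor 1 family, Solyc10g050210.2. Such fucosyltransferases add fucose to the sugar chains of proteins, and the binding factors act in the response to abscisic acid. A gene described as AREB, Solyc04g078840.3, stands before the further gene, with 3 genes between them. These likenesses were noticed in the table and compared by description only.

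The glutamate receptor gene Solyc04g078860.3, of a family of ion channels and the middle one of these 3, rose, with 18.51, 15.92 and 41.15 TPM in slszp1 roots, against 2.06, 1.73 and 1.84 TPM in wild type roots (difference 3.07, SE 0.33, limma adjusted p 0.000617). The tested fucosyltransferase and binding factor genes did not pass the test. Solyc10g050230.2 held 20.19, 21.37 and 22.57 TPM in slszp1 roots, against 16.44, 11.25 and 15.92 TPM in wild type roots, opposite in sign to Solyc10g050220.2 (difference 0.54, SE 0.18, limma adjusted p 0.0688). Solyc01g108110.3 held 12.19, 10.93 and 21.11 TPM in slszp1 roots, against 11.41, 11.34 and 9.42 TPM in wild type roots (difference 0.38, SE 0.25, limma adjusted p 0.334). Solyc01g108087.1 had 34.1 ± 5.80 TPM in slszp1 roots, against 33.1 ± 4.87 TPM in wild type roots, while Solyc10g050210.2 was listed at 0 in every library but wild type replicate 1, with 0.03 TPM.

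Solyc03g026000.3 stands in another setting, ahead of the CBF gene Solyc03g026270.3 on the same chromosome. CBF genes encode factors that switch on genes in the cold. Of the 27 genes between them, 15 were tested, and over all tested genes 8.71% rose and 10.5% fell. By limma 2 of the 15 rose and 0 fell, and nothing is read from this count. The first is SolycHsfB2a (Solyc03g026020.3), named as a heat shock factor gene, with 106 ± 10.4 TPM in slszp1 roots, against 72.2 ± 5.29 TPM in wild type roots. Its limma adjusted p was 0.0282, and it was 0.0569, 0.0875 and 0.0819 with mutant replicates 1, 2 and 3 left out and 0.0953 with wild type replicate 1 left out. The other is a DETOXIFICATION gene (Solyc03g026230.1), named for a family of membrane transporters, with 26.9 ± 3.21 TPM in slszp1 roots, against 10.2 ± 4.997 TPM in wild type roots. The nearest neighbours, Solyc03g025980.3 and Solyc03g026010.2, did not pass, with differences of 0.13 (SE 0.17) and 0.44 (SE 0.26) and limma adjusted p of 0.668 and 0.285.

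Cold response genes were compared because COR27 is named for the cold. Of 23 genes described as CBF, C-repeat or dehydration-responsive element binding (DREB) factors, 10 were tested; 8 rose and 0 fell by limma, with 8 and 0 at an unadjusted p under 0.05. Of the 8, 5 were under 1 TPM in every wild type library, so they were tested only through the mutant and had to be higher there. Of the other 5 tested genes, 3 rose and 0 fell, where 8.71% of all tested genes rose and 10.5% fell. The CBF gene Solyc03g026280.3 held 154.21, 175.51 and 130.1 TPM in slszp1 roots, against 1.27, 7.94 and 1.44 TPM in wild type roots. Its neighbour Solyc03g026270.3 held 11.62, 9.5 and 6.64 TPM in slszp1 roots, against 0.51, 0.96 and 0.69 TPM in wild type roots. As neighbouring CBF copies can share reads, the level of each is uncertain. Solyc06g035700.1 and Solyc08g007830.1 had a listed value of 0 in all wild type libraries and held 13.76, 13.09 and 8.41 TPM and 5.15, 6.25 and 3.52 TPM in slszp1 roots.

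The library pattern inside wild type was partly shared with these genes. Wild type replicate 2 was the highest wild type library for 7 of the 10 tested CBF and DREB genes, against 33.6% of all tested genes. Of the 10, 5 were under 1 TPM in every wild type library, too low to order these libraries. Among the others wild type replicate 2 was the highest for 4 of 5. In the other lists described further on this share was 50% of cold-described genes, 48.1% of clock genes, 43.9% of light signalling genes and 36.6% of green tissue genes. It was 33.3% of dehydrin and LEA genes, 33.3% of root genes and 14.3% of cold regulator genes. At the DREB gene Solyc05g052410.2 slszp1 roots gave 56.36, 56.19 and 43.22 TPM, against 11.83, 22.22 and 14.11 TPM in wild type roots. The DREB genes that did not pass, Solyc08g080290.3 and Solyc10g076370.2, held 19.55 and 11.04 TPM in wild type replicate 2 and 7.01 to 8.32 and 3.16 to 5.25 TPM in the other wild type libraries. Why this library differs was not tested.

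Other genes with cold words in their description included a WCOR413-like gene that rose. Of 10 tested, 3 rose and 0 fell by limma, with 3 and 0 at an unadjusted p under 0.05. The share that rose was 30%, against 8.71% of all tested genes, and the median difference of the 10 was 0.28. The further COR27-described gene is one of the 7 that did not pass. The WCOR413-like cold acclimation gene (Solyc01g109170.3), of a family of membrane proteins induced in the cold in cereals, held 270.12, 278.02 and 286.09 TPM in slszp1 roots, against 93.99, 115.52 and 98.73 TPM in wild type roots. The difference came to 1.43 (SE 0.14; limma adjusted p 0.000405). A cold shock domain gene (Solyc01g111275.1) had 3.90 ± 0.466 TPM in slszp1 roots, against 0.92 ± 0.782 TPM in wild type roots (limma adjusted p 0.0126). A cold-regulated protein gene (Solyc02g091390.3) had 6.60 ± 1.10 TPM in slszp1 roots, against 3.55 ± 0.727 TPM in wild type roots. Its limma adjusted p of 0.0402 was 0.0583 with no filter on low values and 0.0551 with median centring. It was also above 0.05 in 5 of 6 fits without a single library, at 0.106 and 0.14 without mutant replicates 1 and 2 and 0.0587, 0.0648 and 0.123 without wild type replicates 1, 2 and 3.

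**Figure D3:**
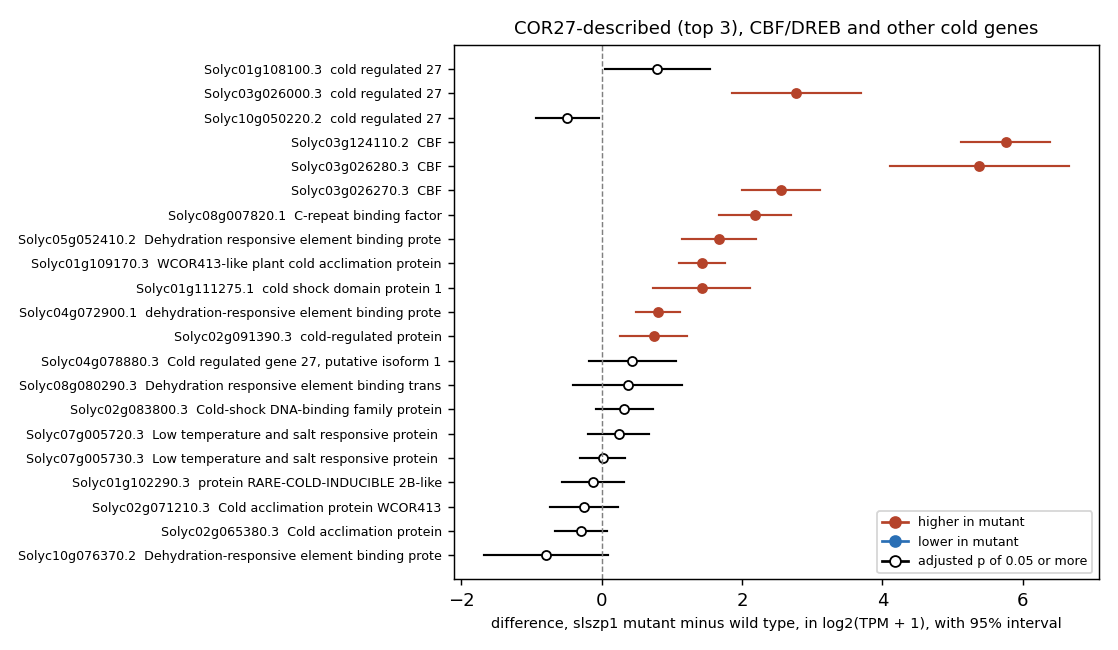
Difference in log2(TPM + 1), mutant minus wild type, with its 95% interval, for the 3 chosen genes (top rows) and the tested CBF, DREB and other cold-described genes; filled points passed an adjusted p of 0.05. Solyc03g026280.3 and Solyc03g124110.2 lie beyond 5, Solyc03g026000.3 at 2.77, and the 2 factors listed at 0 in wild type are left out. Solyc03g124110.2, Solyc03g026270.3 and Solyc08g007820.1 were under 1 TPM in every wild type library. They were tested only through the mutant and had to be higher there.

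The list of genes upstream of CBF in the cold held 7 tested genes, all but 1 of them described as calmodulin-binding transcription activators (CAMTA, which switch on CBF genes in Arabidopsis) and the other as HOS1. No ICE factor was among them. Of the 7, 0 rose and 1 fell by limma, with 1 and 1 at an unadjusted p under 0.05; the 14.3% that changed is near the 19.2% of all tested genes. The CAMTA gene Solyc12g099340.2 fell to 11.6 ± 1.71 TPM in slszp1 roots, against 20.2 ± 1.78 TPM in wild type roots. Its limma adjusted p of 0.0157 was 0.0644 and 0.0517 with mutant replicates 1 and 2 left out and 0.0572 with wild type replicate 3 left out. Dehydrin, LEA and related genes were listed by description words. The list also holds LEA hydroxyproline-rich glycoprotein, ERD and EXS family genes, so its products are not all known to protect cells in drought and cold. Of its 63 tested genes, 7 rose and 12 fell, with 4 higher without mutant replicate 1. The 30.2% that changed stands against 19.2% of all tested genes. A dehydrin gene (Solyc02g062390.3) fell to 7.46 ± 1.55 TPM in slszp1 roots, against 66.7 ± 13.9 TPM in wild type roots, and a Lea5 gene (Solyc09g075210.3) rose, with 3638 ± 660 TPM in slszp1 roots, against 1010 ± 175 TPM in wild type roots.

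Clock genes were compared because the Arabidopsis COR27 transcript follows the clock. Of 39 genes with clock words in their description, 27 were tested; 5 rose and 2 fell by limma, with 10 and 4 at an unadjusted p under 0.05. The share that rose was 18.5%, against 8.71% of all tested genes. Differences were positive for 21 of the 27, against 8844 of 17702 tested genes, and their median was 0.41. One of the 27, Solyc04g082820.3, is a pathogenesis-related protein that the word search took in through its tag; without it 5 of 26 rose and 2 fell. None of the 5 that rose was tested only through the mutant, while the ELF4 gene Solyc06g051660.1, one of the 2 that fell, was tested only through wild type. Of the 27, 1 was tested only through the mutant and 2 only through wild type, so their signs were fixed.

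Among the clock genes that rose were FKF1-like, GIGANTEA and TOC1 genes, whose Arabidopsis relatives are known as afternoon and evening genes. A flavin-binding kelch domain F-box gene (Solyc01g005300.3), of the FKF1 family of blue light receptors that time protein breakdown, held 72.58, 88.93 and 102.03 TPM in slszp1 roots, against 42.21, 39.43 and 47.21 TPM in wild type roots. All mutant libraries lay above all wild type libraries, with a difference of 1.01 (SE 0.165) and a limma adjusted p of 0.00398. A GIGANTEA gene (Solyc04g071990.3), whose protein stabilises such F-box proteins, held 68.32, 70.73 and 101.6 TPM in slszp1 roots, against 41.25, 45.53 and 57.31 TPM in wild type roots. Its limma adjusted p of 0.0372 was 0.068 with no filter on low values and 0.0564 with limma without its trend and robust options. It stayed under 0.05 when wild type replicate 3 was left out and went above it when any other library was, at 0.0536, 0.065 and 0.0994 without mutant replicates 1, 2 and 3 and 0.124 and 0.0655 without wild type replicates 1 and 2. The other GIGANTEA gene, Solyc12g056650.2, held 48.5, 57 and 99.98 TPM in slszp1 roots, against 44.37, 39.55 and 52.51 TPM in wild type roots and did not pass (limma adjusted p 0.216).

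Genes of evening repressors differed from copy to copy. TOC1, a repressor of morning genes, is named for 3 tested gene models. Solyc06g069690.3 rose, with 12.85, 11.82 and 9.67 TPM in slszp1 roots, against 3.11, 2.9 and 6.22 TPM in wild type roots (difference 1.34, SE 0.26, limma adjusted p 0.00902). Solyc03g115770.3 had 10.1 ± 0.615 TPM in slszp1 roots, against 11.7 ± 3.94 TPM in wild type roots, and Solyc06g069693.1 had 5.33 ± 1.80 TPM in slszp1 roots, against 4.21 ± 1.37 TPM in wild type roots. Neither passed, with limma adjusted p of 0.743 and 0.572. Solyc06g069690.3 and Solyc06g069693.1 are close by number on chromosome 6, and whether they are pieces of 1 gene was not tested.

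ELF4 and ELF3 are parts of the evening complex, which represses clock and growth genes at night. The ELF4 gene Solyc06g051660.1 was listed at 0 in every mutant library and held 5.72, 5.8 and 1.81 TPM in wild type roots. Its close relative by number, Solyc06g051680.1, held 5.18, 13 and 7.23 TPM in slszp1 roots, against 3.88, 4.91 and 0.52 TPM in wild type roots, the opposite order, without passing (limma adjusted p 0.147). The ELF4-like gene Solyc07g041340.2 rose, with 14.7 ± 1.03 TPM in slszp1 roots, against 7.57 ± 1.54 TPM in wild type roots (limma adjusted p 0.012). The ELF3 gene Solyc08g065870.3 had 36.1 ± 4.20 TPM in slszp1 roots, against 25.5 ± 3.08 TPM in wild type roots, with a limma adjusted p of 0.0627 that was 0.0348 under quantile normalization and 0.0319 under median centring. The EID1-like F-box gene Solyc06g084320.1, named for a light signalling protein, rose to 5.43 ± 0.526 TPM in slszp1 roots, against 0.937 ± 0.696 TPM in wild type roots.

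The morning gene LHY, which stands close to CCA1 in Arabidopsis, was low in these roots. Solyc10g005080.3, described as Late elongated hypocotyl, held 0.64, 0.93 and 0.91 TPM in slszp1 roots, against 1.36, 2.85 and 1.62 TPM in wild type roots. It was under 1 TPM in every mutant library, so it was tested only through wild type and had to be lower in the mutant. That its highest mutant library was under its lowest wild type library follows from this. The gene did not pass (difference -0.66, SE 0.25, limma adjusted p 0.102). The other clock gene to fall was an APRR2-like gene (Solyc08g077230.3), with 1.503 ± 0.0569 TPM in slszp1 roots, against 5.01 ± 0.983 TPM in wild type roots. Another APRR2 gene, Solyc07g053630.3, had 1.54 ± 0.327 TPM in slszp1 roots, against 0.52 ± 0.297 TPM in wild type roots. It did not pass (limma adjusted p 0.0553). This gene was under 1 TPM in every wild type library, so it was tested only through the mutant and had to be higher there. APRR2-like genes are known in tomato for fruit pigment rather than for the clock. Whether the clock genes play a part in the differences of the COR27-described genes was not tested.

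**Figure D4:**
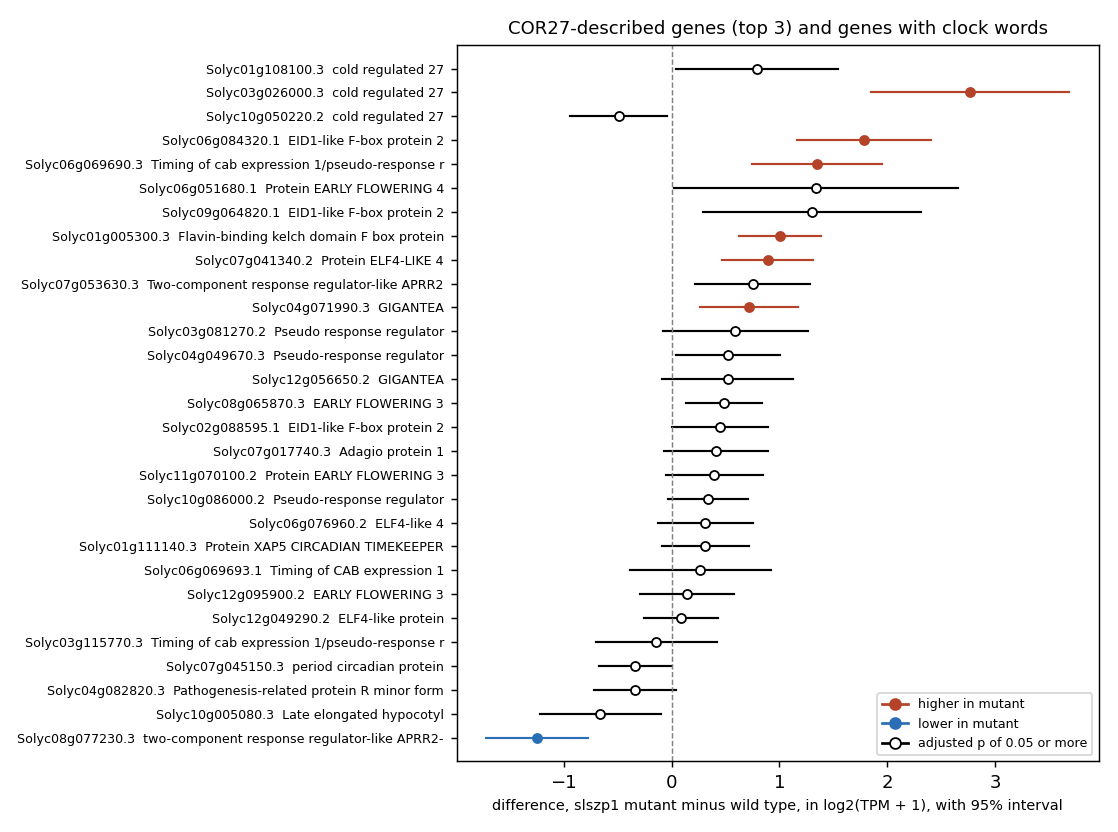
Difference in log2(TPM + 1), mutant minus wild type, with its 95% interval, for the 3 chosen genes (top rows) and the tested genes with clock words, ordered by size; filled points passed an adjusted p of 0.05. Most clock genes lie to the right of 0, LHY and APRR2-like to the left, and the ELF4 gene listed at 0 in the mutant is left out. LHY was tested only through wild type and Solyc07g053630.3 only through the mutant, so the side of each was fixed.

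Light signalling genes were compared because the partners of COR27 in Arabidopsis are among them. Of 57 tested, 8 rose and 5 fell by limma, and the 22.8% that changed is near the 19.2% of all tested genes. Of the 57, 2 were tested only through the mutant and had to be higher there. Another 4 were tested only through wild type and had to be lower in the mutant. All of these but LHY are among the 8 that rose and the 5 that fell, so their directions were fixed. The number that rose was 5, 4 and 3 without mutant replicates 1, 2 and 3 and 4 without wild type replicate 1 or 3, and the number that fell was 3 without wild type replicate 1. The B-box genes Solyc04g081020.3 and Solyc12g089240.2, of a zinc finger family that works with HY5 and COP1, rose. They had 44.9 ± 8.84 and 17.9 ± 3.58 TPM in slszp1 roots, against 21.0 ± 2.49 and 3.29 ± 3.02 TPM in wild type roots. A cryptochrome DASH gene (Solyc08g074270.3), of a family of flavoproteins related to blue light receptors, fell to 0.353 ± 0.12 TPM in slszp1 roots, against 2.63 ± 0.309 TPM in wild type roots, and was tested only through wild type. CONSTANS interacting protein 1 (Solyc06g073180.3) fell to 1.66 ± 0.289 TPM in slszp1 roots, against 8.87 ± 4.29 TPM in wild type roots.

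Markers of green tissue and of root were read beside these lists. The 3 genes described as small subunits of RuBisCO, the carbon-fixing enzyme of leaves, summed to 0 TPM in every mutant library and to at most 0.06 TPM in a wild type library. The 43 genes of chlorophyll a-b binding proteins summed to 78.7 to 89.4 TPM in slszp1 roots, against 82.7 to 97.4 TPM in wild type roots. Over all 229 green tissue genes, of which 121 were listed at 0 in every library, the sum was 767 to 830 TPM in slszp1 roots, against 618 to 649.0 TPM in wild type roots. Of the 41 tested, 4 rose and 3 fell, with 1 lower without mutant replicate 2 or wild type replicate 3. Of the 4 that rose, 1 was tested only through the mutant, and of the 3 that fell, 1 only through wild type. The directions of these were fixed. The 17.1% that changed is near the 19.2% of all tested genes. Photosystem I subunit VI (Solyc03g120640.3) had 118 ± 11.5 TPM in slszp1 roots, against 35.2 ± 8.77 TPM in wild type roots. It is part of the sum over all green tissue genes given above. Another tested gene of this description, Solyc06g066640.3, had 0.917 ± 0.445 TPM in slszp1 roots, against 1.86 ± 0.632 TPM in wild type roots. That gene was opposite in order and did not pass (limma adjusted p 0.174). Of 9 tested genes described by root cap, root hair, root meristem or Casparian strip, 0 rose and 0 fell by limma, with 0 and 1 at an unadjusted p under 0.05. Their sum with the untested members was 192 to 203 TPM in slszp1 roots, against 209.6 to 224 TPM in wild type roots. The Casparian strip gene Solyc10g077055.1 had 29.8 ± 1.26 TPM in slszp1 roots, against 28.6 ± 2.58 TPM in wild type roots.

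The genes most like each member were those with the highest Pearson r of log2(TPM + 1) over the 6 libraries, a measure that takes in the difference between genotypes. For Solyc03g026000.3, 1177 tested genes had an r of 0.9 or more, so likeness by this measure is common. At the top, with r of 0.999, stood a thaumatin family gene (Solyc04g081560.3), of the pathogenesis-related proteins, and a bZIP transcription factor gene (Solyc06g060490.3). The thaumatin gene held 82.71, 69.98 and 100.94 TPM in slszp1 roots, against 11.92, 27.52 and 10.81 TPM in wild type roots. An alpha/beta-hydrolase (Solyc11g045465.1), a histone H1 (Solyc09g083380.3) and a metallothionein-like gene (Solyc04g058100.3) followed with r of 0.997, 0.997 and 0.996. All 5 rose in the mutant.

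The genes named here as most like the other members did not pass the test, though 2 of them did under another setting. For Solyc10g050220.2, 261 tested genes had an r of 0.9 or more, led by the temperature-induced lipocalin gene Solyc12g010320.2 with an r of 0.993. That gene, of a family that protects membranes in heat and cold, held 12.65, 13.61 and 14.48 TPM in slszp1 roots, against 20.36, 29.2 and 16.09 TPM in wild type roots. Its limma adjusted p was 0.086, and 0.0402 without wild type replicate 3. The next were a PDX1 gene of vitamin B6 synthesis (Solyc03g120090.1), a sulfate import ATP-binding gene (Solyc01g097830.2) and a histone H3 gene (Solyc04g081150.3), with r of 0.992, 0.992 and 0.987. For Solyc01g108100.3, 409 tested genes had an r of 0.9 or more, led by a photosystem II PsbP family gene (Solyc06g054220.2) with an r of 0.995. A WPP domain-interacting protein gene (Solyc07g066170.3) and a kinase gene (Solyc03g083590.3) followed with r of 0.989 and 0.988. EIL3 (Solyc01g096810.3), of a family of ethylene and sulfur response factors, had an r of 0.988. It held 171.72, 202.84 and 211.29 TPM in slszp1 roots, against 143.17, 191.84 and 167.54 TPM in wild type roots. A ferric reductase oxidase gene (Solyc00g020545.1), of a family that reduces iron at the cell surface, had an r of 0.987. Its limma adjusted p was 0.134, and 0.0379 without wild type replicate 2.

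The differences of the 3 genes kept their signs under all 12 other settings. Solyc03g026000.3 passed in each, with differences of 2.46 to 3.38 and limma adjusted p of 0.000245 to 0.0184. Solyc10g050220.2 passed in none, with limma adjusted p of 0.0726 to 0.289. Solyc01g108100.3 passed without wild type replicate 2, and its limma adjusted p was 0.0288 to 0.346 over the 12 settings.

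**Figure D5:**
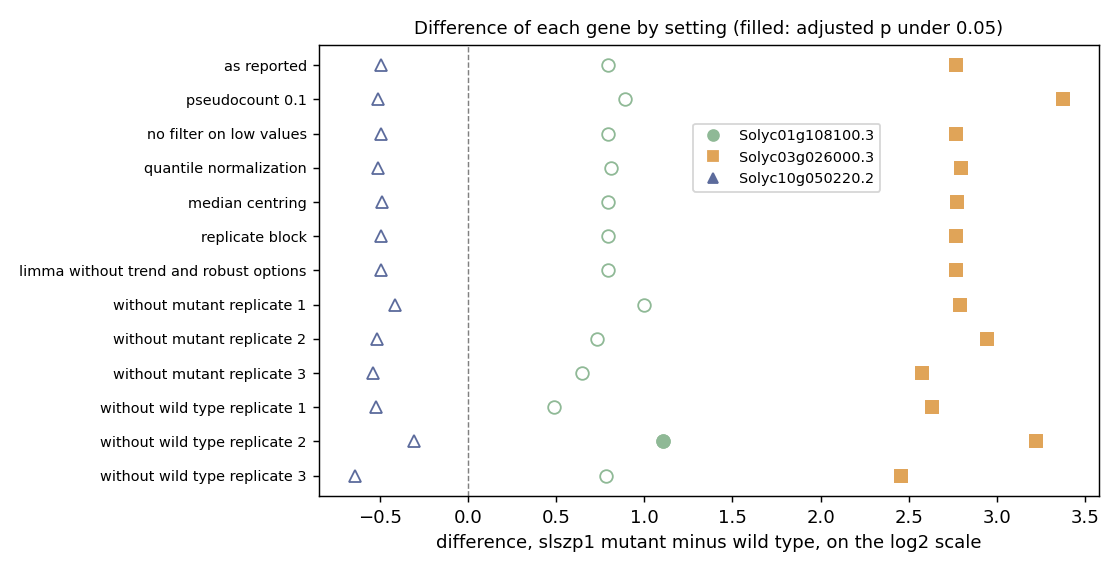
Difference between mutant and wild type of each of the 3 genes on the log2 scale, as reported and under each other setting; a filled point has an adjusted p under 0.05. Solyc03g026000.3 is filled in every row, Solyc01g108100.3 only without wild type replicate 2, and Solyc10g050220.2 in none.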

How the data were processed

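All 6 value columns of the deposited table, 1 for each root library, were used. Its header names no unit; the columns sum to 940694 to 974316, and from this the deposited values were read as TPM, by inference only. The tools used were TopHat2, HISAT2, StringTie and Cufflinks, per the submitters' processing notes, which give neither their versions nor their roles. The build was not given in the sources used here. Depth is unknown, since TPM does not keep it, and no counting interval is given. An exact 0 can be a failed estimate. Groups came from the sample titles.

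Genes that reached 1 TPM in 3 or more libraries were tested as log2(TPM + 1) with limma 3.58.1 (trend and robust options; statmod 1.5.0, R 4.3.3) and Benjamini-Hochberg adjustment. The fit was tested on simulated data. Lists were patterns in the gene descriptions. The genes, lists and tests were chosen with earlier results of these data known. The text names the 3 genes, up to 4 changed genes of each list by smallest p (any tested clock or CBF gene), the 5 genes most like each member, of which 1 is not reported here, and table neighbours. The genes between Solyc03g026000.3 and the CBF genes, Solyc04g078840.3, the Casparian strip gene Solyc10g077055.1 and the trimmed clock and CBF lists were chosen after their values were seen. The photosystem I gene Solyc06g066640.3 was also chosen after its values were seen. P-values weigh the difference between genotypes against the spread between these libraries only. Alternatives were quantile normalization, median centring, a pseudocount of 0.1, testing without the 1 TPM minimum, a replicate block, limma without both options, and each library left out.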

Additional observations from a re-analysis of the deposited data

How the results depend on the processing

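With 3 libraries a genotype and unknown depth, low levels such as those of LHY are uncertain. Leaving out single libraries, the difference of Solyc01g108100.3 ranged from 0.49 to 1.10, and the counts of genes changed in the whole table ranged from 994 to 1764 higher and 1131 to 2042 lower. In the same fits 0 to 1 cold regulator genes fell, 3 to 8 light signalling genes rose and 3 to 5 fell, 4 to 9 dehydrin and LEA genes rose, and 1 to 3 green tissue genes fell. With no filter on low values, 8 light signalling genes and 5 green tissue genes fell, where more genes were tested. Of 39 changed genes followed through the settings, some not named in the text, 35 kept their call under all 12 settings. The exceptions are Solyc02g091390.3, Solyc03g026020.3, Solyc04g071990.3 and Solyc12g099340.2. Some of the 39 were chosen by smallest p in these data, so the number kept says little about other genes. The CBF and DREB counts were 8 or 9 higher and 0 lower under these 12 settings, and 3 higher and 0 lower without the genes under 1 TPM in every wild type library, an alternative chosen after seeing the data.

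The replicate numbers were not shown to pair the libraries: deviations from the genotype means of the same numbers correlated at -0.048, -0.074 and 0.108, and the highest value for different numbers was 0.141. With the replicate number as a block, 1276 genes were higher and 1499 lower, and 3 light signalling genes fell. The limma adjusted p with the block was 0.0184 for Solyc03g026000.3, 0.068 for Solyc01g108100.3 and 0.127 for Solyc10g050220.2. It was 0.0627 for Solyc02g091390.3 and 0.0428 for Solyc00g020545.1.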
